A study of Mus musculus with 2 samples.

Results

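The 9 genes described here lie in 1 stretch of mouse chromosome 2 that also holds other genes. They are Hoxd8, Hoxd9, Hoxd10, Hoxd11, Hoxd12 and Hoxd13 of the HoxD cluster, Evx2 beside Hoxd13, and the flanking genes Lnpk and Mtx2. They were chosen by name and matched by GENCODE M21 symbol, which found all 9 of them among 55536 annotated genes, together with their transcripts. Limb tissue came from B6NCrl mouse embryos of 12.5 days, a strain to which the labels add no allele or agent, with male and female embryos pooled. Limbs of 88 embryos were pooled for replicate 1 and of 68 for replicate 2, labelled as biological replicates, and each polyA RNA library was made from 10 ng of RNA by oligo-dT priming with ERCC spike-in RNA. The labels do not say in which proportion forelimbs and hindlimbs entered the pools. No other tissue, age or genotype was given, so the results are levels with their spread over 2 libraries, and p-values compare these libraries and not conditions.

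Hox genes encode homeodomain transcription factors, and the genes at the Hoxd13 end of the HoxD cluster pattern the limb from the forearm to the digits. In the limb bud the cluster is read by enhancers in the gene deserts on both of its sides, which act first on the forearm region and later on the future hand and foot. Evx2, Lnpk and, on the other side, Mtx2 share parts of these regulatory landscapes, and Lnpk and Mtx2 encode proteins of the endoplasmic reticulum and of mitochondria that have no homeobox.

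The libraries held 29633457 and 30118921 estimated gene reads in replicates 1 and 2, and a level of 1 TPM, the deposited unit that is scaled for length and depth, rested on 37.5 and 37.9 reads for a transcript of 2000 nt. All 8 limb mesenchyme markers listed reached 1 TPM in both libraries, from Lhx2 at 31.5 ± 3.70 TPM to Msx1 at 375 ± 19.6 TPM (mean ± SD, n = 2, here and below). HoxD genes and Evx2 are also known from the neural tube, trunk, urogenital tract and hindgut. Of 9 neural tube markers 0 reached 1 TPM, their summed level was 1.41 and 1.15 TPM, and Sox1, Nkx2-2 and Neurog2 had 0 reads in both libraries. Of 6 trunk somite markers 3 reached it, with a summed level of 46.71 and 37.53 TPM, which by itself does not show trunk tissue in the pools. Of 6 urogenital and hindgut markers only Sox17, which endothelium also expresses, did so, with Cdx2 at 0 reads.

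All 9 genes were detected at 1 TPM or more in both libraries, where 27.3% of all genes and 58.1% of protein-coding genes were. Hoxd12 had the highest mean at 95.8 ± 10.8 TPM and Evx2 the lowest at 5.975 ± 0.940 TPM, a 16.0-fold range. Within the cluster the level did not follow gene order at its Hoxd13 end: with all transcripts summed, it was highest at Hoxd12, lower at Hoxd13 and Hoxd11, and then lower at each of Hoxd10, Hoxd9 and Hoxd8. In bulk tissue, fewer cells that use a gene and less RNA per cell cannot be told apart.

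**Figure D1:**
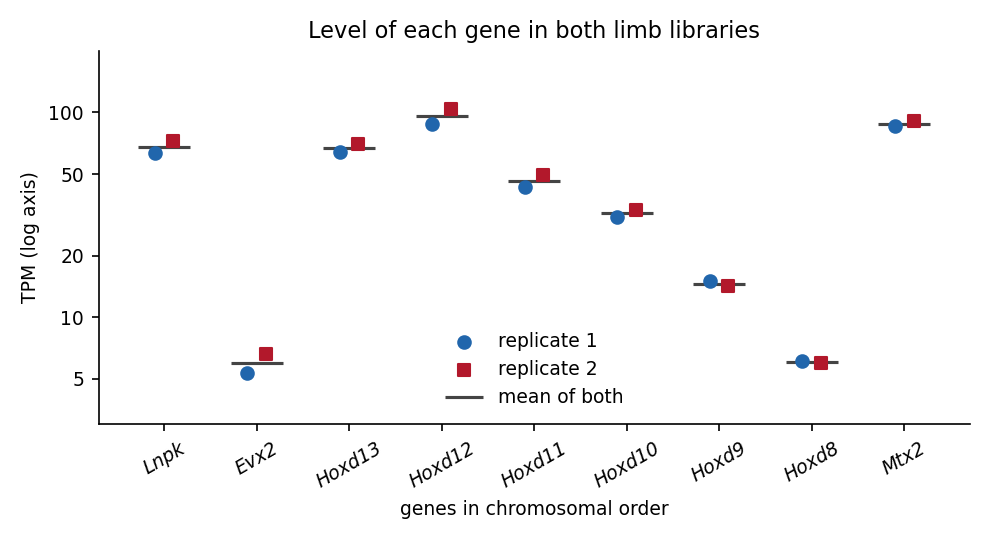
Level of each gene in TPM (log axis) in replicate 1 (circles) and replicate 2 (squares), with bars at the mean, in chromosomal order. Hoxd12, Mtx2, Lnpk and Hoxd13 lie between 63.1 and 103.5 TPM in both libraries, and Evx2 and Hoxd8 between 5.31 and 6.64 TPM.

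Because the 6 Hox genes and Evx2 all carry a homeobox, stretches that could make their reads alike are shown first. The 6 lines give, for 5 of the Hox genes and Evx2, 5′ to 3′ on the coding strand and from the GENCODE M21 transcripts, the last 60 bases of each homeobox, which encode most of the helix that contacts DNA. Capitals mark bases that differ from Hoxd13.
Hoxd13: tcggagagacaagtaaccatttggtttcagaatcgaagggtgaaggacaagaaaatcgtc
Hoxd12: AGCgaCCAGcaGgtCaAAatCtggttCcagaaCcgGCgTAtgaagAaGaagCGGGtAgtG
Hoxd11: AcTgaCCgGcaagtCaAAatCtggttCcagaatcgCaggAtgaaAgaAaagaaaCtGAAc
Hoxd10: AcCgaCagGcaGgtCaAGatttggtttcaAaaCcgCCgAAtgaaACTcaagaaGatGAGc
Hoxd8: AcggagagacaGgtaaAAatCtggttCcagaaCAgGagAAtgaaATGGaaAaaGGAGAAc
Evx2: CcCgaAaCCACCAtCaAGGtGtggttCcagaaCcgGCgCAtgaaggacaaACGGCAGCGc
Hoxd12 differed from Hoxd13 at 26 of these 60 positions, Hoxd11 at 18 and Evx2 at 29. Over the whole homeobox of 180 nt, identity to Hoxd13 ran from 48.3% for Evx2 through 51.7% for Hoxd8 to 59.4% for Hoxd11. The pair of highest identity among the 6 was Hoxd10 and Hoxd11 at 65%. The longest run that 2 of these 6 homeoboxes shared at the same position was 20 nt, between Hoxd11 and Hoxd12. No window of 100 nt in any annotated transcript of Hoxd8, Hoxd9, Hoxd12, Hoxd13, Evx2, Lnpk or Mtx2 occurred in a transcript of another gene, whereas Hoxd10 and Hoxd11 shared such windows with the transcript Gm28309 described further on.

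Hoxd13 (ENSMUSG00000001819.4, chromosome 2, 74668310 to 74671599, plus strand, mm10), needed for digit formation, measured 63.88 TPM in replicate 1 and 70.22 TPM in replicate 2, from 3006 and 3338 reads. Hoxd12 (ENSMUSG00000001823.5, 74675013 to 74677705, plus strand), its neighbour in the cluster and another gene of the distal limb, measured 88.19 and 103.5 TPM, from 4239 and 5025 reads. Hoxd12 was 1.43-fold higher than Hoxd13 on the mean. Both Hoxd12 values lay above both Hoxd13 values, and the log2 ratio of 0.47 in replicate 1 and 0.56 in replicate 2 exceeded a spread of 0.24. This spread is the size of log2 difference between replicates that 95% of 500 genes stay within. These 500 are the genes closest in TPM to the lower gene of the pair (here Hoxd13). The spread is used below for comparing genes. Passing it shows that an order of TPM repeated in both libraries. An error in the level of a gene that is alike in both libraries, as from its annotated length, does not enter the spread.

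Hoxd11 (ENSMUSG00000042499.13, 74679557 to 74687016, plus strand), which acts with Hoxa11 in the forearm, measured 43.24 and 49.41 TPM, from 1603.05 and 1867.32 estimated reads. Both values lay below those of Hoxd13, and Hoxd13 was 1.45-fold higher on the mean. This order depends on whether the overlapping transcript Gm28309 is counted as a Hoxd11 transcript. With the TPM of Gm28309 added, Hoxd11 would stand at 67.83 and 78.61 TPM, above Hoxd13 in both libraries but within the spread. That sum keeps each transcript at its own length, and a new division of the reads was not tried. Hoxd10 (ENSMUSG00000050368.4, 74691924 to 74695105, plus strand), a gene of the proximal limb and of spinal motor neurons, measured 30.88 and 33.49 TPM, from 1046.62 and 1146.59 reads. Hoxd11 lay 1.44-fold above Hoxd10, past the spread, but the order of this pair depended on which transcripts were counted, as given below.

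Hoxd9 (ENSMUSG00000043342.9, 74697727 to 74700208, plus strand), a gene of the early limb field and the proximal limb, measured 15.02 and 14.16 TPM, from 604 and 575 reads. Hoxd8 (ENSMUSG00000027102.4, 74704615 to 74707933, plus strand), which is used along the trunk, measured 6.08 and 5.99 TPM, from 283 and 299 reads. Each step down this side of the cluster passed the spread: Hoxd10 was 2.21-fold above Hoxd9 and Hoxd9 was 2.42-fold above Hoxd8. Hoxd12 stood 15.9-fold above Hoxd8, and the start sites of these genes lie 6.703 and 36.305 kb from that of Hoxd13.

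Summed over the 9 genes of the HoxD cluster, Hoxd11 to Hoxd13 made up 78.4% of the TPM in replicate 1 and 80.0% in replicate 2. Hoxd8 to Hoxd10 made up 20.9% and 19.2%. Hoxd1, Hoxd3 and Hoxd4, at the far end of the cluster, made up 0.727% and 0.767%. Their single levels were 0.330 ± 0.0141 TPM for Hoxd1, 1.12 ± 0.0849 TPM for Hoxd3 and 0.525 ± 0.134 TPM for Hoxd4, and Hoxd3 and Hoxd4 have overlapping gene bodies, so that their split is uncertain.

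Evx2 (ENSMUSG00000001815.15, 74652991 to 74659557, minus strand), a homeobox gene of the even-skipped family, measured 5.31 TPM in replicate 1 and 6.64 TPM in replicate 2, from 429 and 542 reads. It is transcribed away from Hoxd13, and 8.752 kb separate the gene bodies. Hoxd13 was 11.2-fold higher than Evx2, and its lower library was far above the higher library of Evx2. Evx2 and Hoxd8 could not be ordered, since their log2 ratio was 0.20 in favour of Hoxd8 in replicate 1 and -0.15 in replicate 2, against a spread of 0.57.

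The promoters of this divergent pair are shown because the genes are neighbours whose levels differ more than those of any neighbours from Hoxd13 to Hoxd8. The sequences are the 250 bases before each RefSeq start site (GRCm38.p6), 5′ to 3′ on the strand of the gene, minus for Evx2 and plus for Hoxd13. Capitals mark matches on either strand to TATAAA (the TATA box), CCAAT (the CCAAT box), GGGCGG (the GC box) or TGATNNAT (the site of PBX with HOX proteins), and overlapping matches run together.
Evx2 (chr2:74659558-74659807): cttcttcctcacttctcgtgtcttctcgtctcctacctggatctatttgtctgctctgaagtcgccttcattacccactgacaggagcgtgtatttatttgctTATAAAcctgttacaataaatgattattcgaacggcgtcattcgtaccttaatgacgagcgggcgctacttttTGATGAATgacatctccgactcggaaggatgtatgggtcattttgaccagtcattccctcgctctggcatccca
Hoxd13 (chr2:74667975-74668224): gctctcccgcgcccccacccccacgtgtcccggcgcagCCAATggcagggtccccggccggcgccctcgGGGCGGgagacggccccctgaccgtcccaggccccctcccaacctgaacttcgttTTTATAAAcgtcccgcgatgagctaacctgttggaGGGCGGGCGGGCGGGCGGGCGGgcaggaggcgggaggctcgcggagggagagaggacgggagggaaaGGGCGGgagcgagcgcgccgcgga
The Evx2 stretch held 1 TATA box match and 1 PBX-HOX match and had a GC content of 45.6%. The Hoxd13 stretch held 7 matches to the GC box, 1 CCAAT box match and a TATA box read on both strands, and had a GC content of 74.4%, against a median of 52.4% over all promoters in the table. Of 32851 promoters of this length, 12.4% held TATAAA, 33.8% CCAAT, 32.7% GGGCGG and 7.68% TGATNNAT. Over the 10 start sites listed for the 9 genes these motifs were found at 2, 5, 5 and 2 sites, and such matches only describe the letters.

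Lnpk (ENSMUSG00000009207.15, 74520291 to 74579435, minus strand) encodes lunapark, which shapes the tubules of the endoplasmic reticulum. It measured 63.1 and 72.37 TPM, from 3600 and 4290 reads, and 73.555 kb separate it from Evx2. Mtx2 (ENSMUSG00000027099.9, 74825803 to 74878431, plus strand) encodes metaxin 2 of the outer mitochondrial membrane. It measured 85.85 and 90.62 TPM, from 2447 and 2557 reads, and starts 157.493 kb from the start of Hoxd13. Summed over all transcripts, both flanking genes were near the highest Hox genes of the cluster in level. The log2 ratio of Hoxd12 over Mtx2 was 0.04 in replicate 1 and 0.19 in replicate 2, within the spread of 0.21, and that of Lnpk over Hoxd13 was -0.02 and 0.04, within the spread of 0.24. With protein-coding transcripts only, neither held: Hoxd12 was above Mtx2 (mean log2 ratio 1.72) and Lnpk below Hoxd13 (-0.35), both past the spread.

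In order of mean level the genes ran Hoxd12, Mtx2, Lnpk, Hoxd13, Hoxd11, Hoxd10, Hoxd9, Hoxd8 and Evx2. Of the 36 pairs among them 33 had the same direction in each library and passed the spread. The other 3 were Hoxd12 with Mtx2, Lnpk with Hoxd13, and Hoxd8 with Evx2, which are 3 of the 8 neighbouring pairs in this order. With reads not divided by length, which favours long transcripts, Mtx2 fell below Lnpk (mean log2 ratio -0.65) and below Hoxd13 (-0.34), and Hoxd9 over Evx2 no longer passed the spread (0.29 on the log2 scale). The 3 pairs left unordered above passed it on that scale, with Hoxd12 over Mtx2 at 0.88, Lnpk over Hoxd13 at 0.31 and Hoxd8 over Evx2 at -0.73. With Gm28309 added to Hoxd11, 30 pairs passed, and Hoxd11 was no longer ordered against Hoxd13, Lnpk or Mtx2.

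Across the 358141 nt from Lnpk to Mtx2 the annotation lists 27 genes, 18 of them besides the 9. Of these 18, 6 reached 1 TPM in both libraries, 13 had at least 1 read and 5 had none. The highest was the processed pseudogene Mrpl23-ps1 at 136 ± 1.11 TPM, whose reads can be shared with its parent gene and whose level is uncertain. Gm28309, which overlaps Hoxd11 and Hoxd10, stood at 26.9 ± 3.26 TPM. Hoxd3os1 on the minus strand stood at 6.65 ± 0.523 TPM, a level close to that of Hoxd8 at 6.035 ± 0.0636 TPM, and Hoxd8 lies within its gene body but shares no exonic base with it. Gm14396 at 1.71 ± 0.509 TPM, Gm28793 at 1.32 ± 0.0424 TPM and Hoxd3 were the other 3. Gm14396 rested on only 12 and 18.57 reads and Gm28793 on 8 and 8.43. These short genes share 118 exonic nt on opposite strands, and whether strand was used is not given, so their split is uncertain. Below 1 TPM in both libraries were Hoxd1, Hoxd4, Gm28230, Haglr, Gm14424 and Gm14425, and the miRNA entry Gm44463 had 0 reads in replicate 1 and 1 read, listed at 1.32 TPM, in replicate 2.

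**Figure D2:**
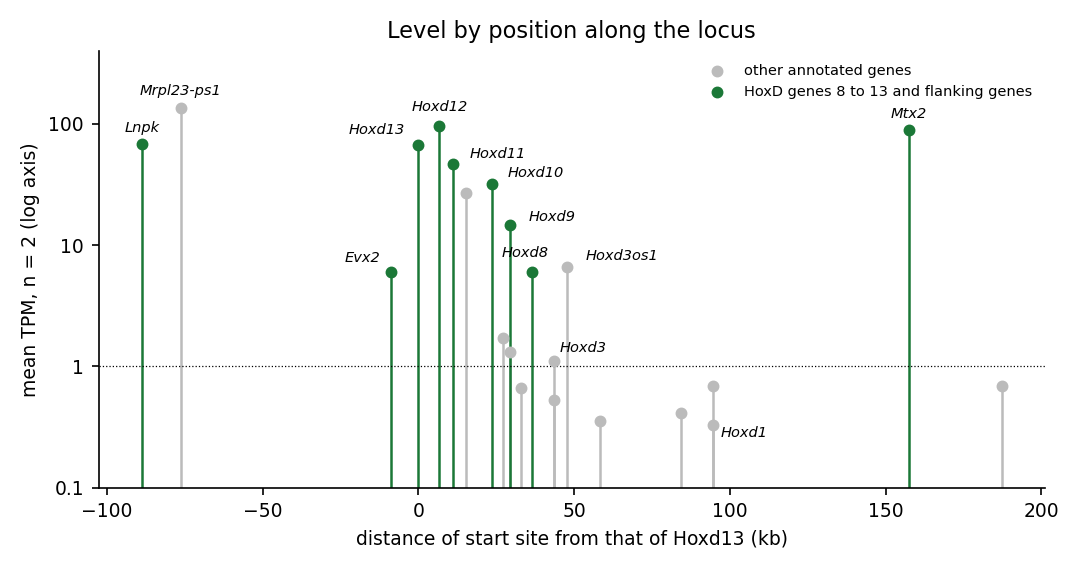
Mean TPM over both libraries (log axis) of every gene with a read between Lnpk and Mtx2, by the distance of its start site from that of Hoxd13 in kb. The line at 1 TPM is the detection limit used; from Hoxd13 at 67.05 TPM the level is higher at Hoxd12 (95.8 TPM) and then steps down to 6.035 TPM at Hoxd8, and Hoxd3, Hoxd4 and Hoxd1 lie at or under 1.12 TPM.

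Hoxd9, Hoxd10, Hoxd12 and Hoxd13 have 1 annotated transcript each. Evx2 has 2, of which Evx2-201 held 100% of the gene, and Hoxd8 has 3, of which Hoxd8-201 held 88.16% and 96.23%. Lnpk, Hoxd11 and Mtx2 were the 3 genes with a second transcript at 10% or more of the gene in both libraries. Among protein-coding genes at 1 TPM the share with such a second transcript was 57.4%, and among all genes at 1 TPM it was 51.2%.

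Hoxd11 combined a protein-coding and a non-coding transcript that start at different sites. Hoxd11-202, which encodes the protein and starts at position 74682323, held 61.61% and 60.83% of the gene's TPM. Hoxd11-201, annotated as a processed transcript, starts at 74679557 and held 38.39% and 39.17%. Hoxd11-201 is 3367 nt long and Hoxd11-202 is 1111 nt, so the order of read numbers was the reverse: 1070.86 and 1260.87 reads went to Hoxd11-201, 66.8% and 67.5% of the gene's reads, and 532.18 and 606.46 to Hoxd11-202. The second exon of Hoxd11-201 holds all 266 nt of the second exon of Hoxd11-202 and runs on for a total of 3114 nt. Hoxd11-202 has 1008 coding nt and is annotated to end at 74684168. Reads past that end could not be assigned to it, even if they came from a coding RNA with a longer end. Whether such an RNA was present was not tested. Only the first exon of Hoxd11-201, of 253 nt, is particular to the upstream start, so its share does not measure use of that start. Reads in the shared 266 nt were divided between the transcripts by the authors' estimate, and within the gene 3101 nt belong to Hoxd11-201 alone and 845 nt to Hoxd11-202 alone. Hoxd11-201 also shares 455 nt with Gm28309, part of them outside those 266 nt.

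The stretches before both Hoxd11 start sites are shown because reads were assigned to the transcripts of both, again as 250 bases from RefSeq (GRCm38.p6), plus strand, 5′ to 3′, with the motif matches defined above in capitals.
Hoxd11, upstream start (chr2:74679308-74679557): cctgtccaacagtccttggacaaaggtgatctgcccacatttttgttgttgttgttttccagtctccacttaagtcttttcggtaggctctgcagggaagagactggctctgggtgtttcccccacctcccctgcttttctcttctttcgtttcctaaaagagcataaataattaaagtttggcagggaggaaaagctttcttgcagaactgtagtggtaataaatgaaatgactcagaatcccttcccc
Hoxd11, coding start (chr2:74682073-74682322): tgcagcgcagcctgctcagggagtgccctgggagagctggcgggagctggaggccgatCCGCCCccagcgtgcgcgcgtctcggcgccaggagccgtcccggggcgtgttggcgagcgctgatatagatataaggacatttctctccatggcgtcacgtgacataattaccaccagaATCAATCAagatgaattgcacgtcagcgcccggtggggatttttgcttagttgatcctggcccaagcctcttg
The stretch before the upstream start held no match and had a GC content of 44.8%. The stretch before the coding start held a GC box and a PBX-HOX match and had a GC content of 60.4%.

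Gm28309 (ENSMUSG00000099521.1, chromosome 2, 74683446 to 74694194, plus strand), annotated as a processed transcript, joins exonic sequence of Hoxd11 to the start of the second exon of Hoxd10. The 4 lines give splice junctions, for Gm28309-201 its last, 30 bases on each side and 5′ to 3′ on the plus strand (mm10), with the exon after the junction in capitals. They show exon starts that these transcripts have in common.
Hoxd11-202: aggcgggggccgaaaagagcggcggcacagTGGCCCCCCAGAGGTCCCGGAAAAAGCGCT
Hoxd11-201: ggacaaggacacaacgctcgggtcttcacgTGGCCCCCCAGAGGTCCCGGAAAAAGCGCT
Hoxd10-201: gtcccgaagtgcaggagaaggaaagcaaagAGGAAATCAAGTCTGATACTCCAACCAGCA
Gm28309-201: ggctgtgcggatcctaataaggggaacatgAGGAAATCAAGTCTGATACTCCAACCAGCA
Both Hoxd11 transcripts enter an exon that begins at 74683903, and exon 2 of Gm28309-201, whose junction is not shown, begins there too. These exons end at different positions. Hoxd10-201 and Gm28309-201 enter an exon that begins at 74694091, the former after an intron of 1366 nt and the latter after one of 9733 nt. Of the 623 nt of Gm28309, 559 nt or 89.7% are exonic in Hoxd10 or Hoxd11, and 69.3% of its windows of 100 nt occur in Hoxd10 or Hoxd11. It received 254.33 and 305.08 estimated reads, with a posterior SD of 15.59 and 16.67 reads, while that of Hoxd11 was 15.56 and 16.66 reads and that of Hoxd10 was 0.48 and 0.49. By these SDs, which were small beside the reads, the division between Gm28309 and Hoxd11 was less certain than that of Hoxd10. Of the windows of Hoxd11-201 10.9% occur in Gm28309, and 16.6% of those of Hoxd11-202, against 0.349% for Hoxd10-201. With the TPM of Gm28309 added, which counts it as a Hoxd11 transcript and does not divide the reads anew, Hoxd11 would stand at 73.2 ± 7.62 TPM. Without it Hoxd11 stood at 46.3 ± 4.36 TPM.

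Mtx2 had 3 transcripts of similar share. The coding Mtx2-201 held 33.87% and 32.04%, and the retained-intron transcripts Mtx2-202 and Mtx2-203 held 38.55% and 35.07%, and 27.58% and 32.9%. Because Mtx2-201 is longer, it took 66.9% and 64.5% of the reads. Lnpk had 13 transcripts, led by the coding Lnpk-201 at 52% and 46.65% and Lnpk-203 at 20.39% and 25.88%. The non-coding Lnpk-212, of 4096 nt, held 10.6% and 11.96%. Coding transcripts held 78.6% and 76.7% of Lnpk.

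**Figure D3:**
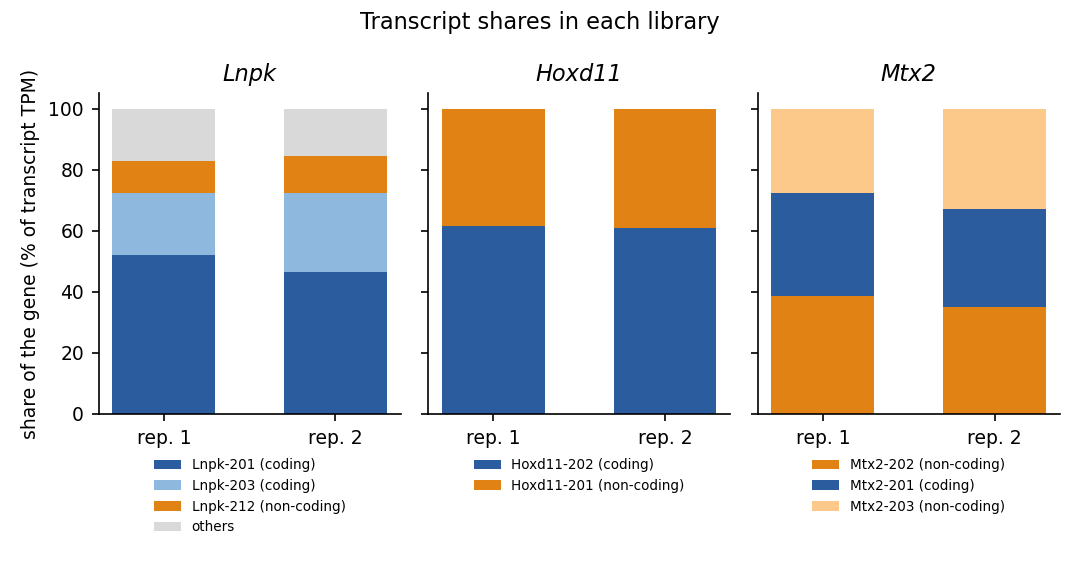
Share of each gene's TPM held by its transcripts in each library, for the 3 genes with a second transcript at 10% or more in both; blue marks protein-coding and orange non-coding transcripts, and grey the sum of those under 10% on the mean. The shares of Hoxd11 are 61.61% and 60.83% coding, and those of Mtx2 33.87% and 32.04%.

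Counting protein-coding transcripts only left 6 genes as they were, apart from rounding, and lowered 3. Mtx2 stood at 29.1 ± 0.0354 TPM in place of 88.2 ± 3.37 TPM, Hoxd11 at 28.4 ± 2.42 TPM and Lnpk at 52.5 ± 4.19 TPM in place of 67.7 ± 6.55 TPM. The peak at Hoxd12 and the lower levels of Hoxd9 and Hoxd8 were as before, but Hoxd11 was then below Hoxd10 (mean log2 ratio -0.18), within the spread of 0.30. Mtx2 was then below Hoxd13 (-1.20) and Lnpk (-0.85), past the spread.

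**Figure D4:**
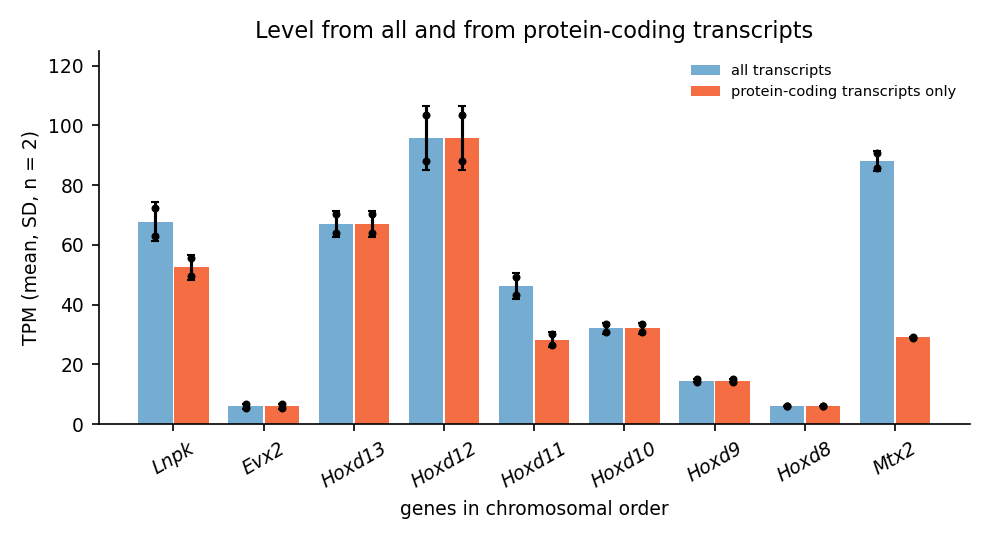
Mean TPM with SD (n = 2, dots for the libraries) from all transcripts and from protein-coding transcripts only, for each gene in chromosomal order. The bars differ for Lnpk, Hoxd11 and Mtx2, with Mtx2 at 88.2 and 29.1 TPM.

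The libraries were then compared with each other to see how far the levels repeat. Of the 9 genes 0 differed between the libraries at an adjusted p under 0.05 together with a 1.5-fold difference in TPM, in an exact two-sided binomial test with Benjamini-Hochberg adjustment over 15926 genes, of which 2.71% did (1.48% higher and 1.23% lower in replicate 2). At an unadjusted p under 0.05 there were 5 of the 9, against 29.9% of all genes tested. The same 5 had an adjusted p under 0.05 when no fold was asked for, all of them higher in replicate 2, where 8.96% of genes were called higher and 10.3% lower. They were Hoxd12 (log2 ratio 0.23, adjusted p = 5.83e-12 in the exact binomial test), Lnpk (0.20, adjusted p = 6.76e-11), Hoxd11 (0.19, adjusted p = 0.000715), Hoxd13 (0.14, adjusted p = 0.00355) and Evx2 (0.32, adjusted p = 0.00663). This test knows only the counting error of the reads, so that small differences pass at high counts.

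Set against genes of like level, of the 9 only Hoxd12 differed between the libraries by more than the spread, 0.23 against 0.21. Hoxd10 (0.12), Mtx2 (0.08), Hoxd9 (-0.09) and Hoxd8 (-0.02) did not pass the exact binomial test. In all, 7 of 9 genes had the higher TPM in replicate 2, where 53.1% of all genes tested did. By scaled read count 8 of 9 were higher, all but Hoxd9, but the share over all genes was not computed for this measure. The median log2 TPM ratio of the 9 genes was 0.14 against 0.01 over all genes tested. It was also 0.14 over the 11 tested paralogues of these genes in the other clusters, which are described below. The shift was thus not particular to the 9 genes. Spike-in RNA took 7.34% of the TPM in replicate 1 and 5.13% in replicate 2. With TPM rescaled without spike-ins, tRNA and mitochondrial genes, the medians of the 9 genes and of all genes were 0.10 and -0.02.

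The listed trunk somite markers and the forelimb and hindlimb genes are given beside this. Whether the reads of the somite markers came from trunk tissue or from limb cells was not tested. Of the 4 trunk somite markers tested, 2 were called, against the 2.71% of all genes tested, both lower in replicate 2: Pax1 at 1.47 and 0.61 TPM and Nkx3-2 at 6.82 and 3.13 TPM. The other 2 were not called, Tbx18 at 27.58 and 22.37 TPM and Meox1 at 10.57 and 11.21 TPM. Of the limb genes, Tbx5, which marks the forelimb, measured 39.96 and 28.38 TPM. The hindlimb genes Tbx4 and Pitx1 measured 30.6 and 35.1 TPM, and 135.56 and 163.98 TPM. The log2 ratios were -0.49 for Tbx5, 0.20 for Tbx4 and 0.27 for Pitx1. None of these 3 was called, as each was under the 1.5-fold minimum, which does not show that they were unchanged. With no fold minimum Tbx4 passed (adjusted p = 0.000155 in the exact binomial test). Tbx5 had 2572 and 1794 reads, and Pitx1 5624.76 and 6960.88. Whether these differences have a part in those of the HoxD genes was not tested.

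**Figure D5:**
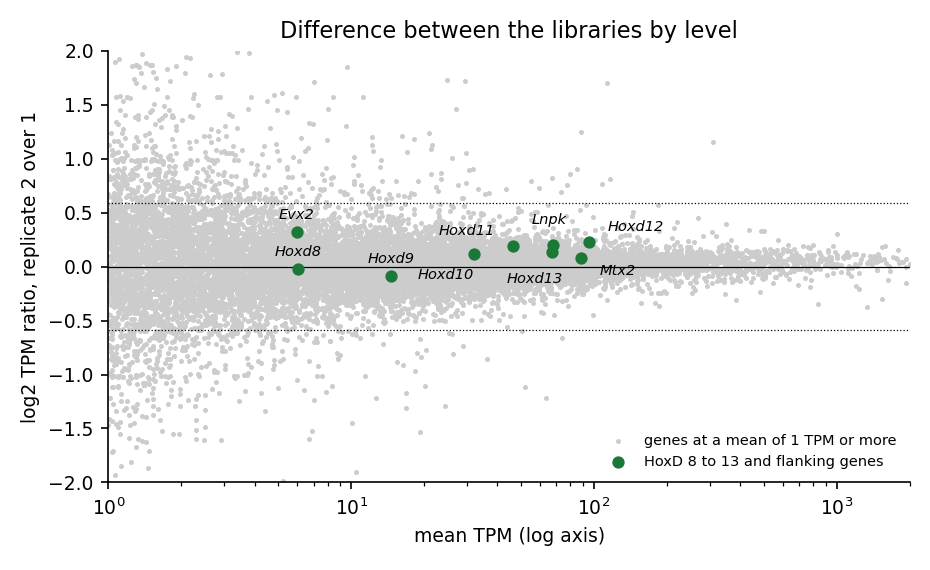
Log2 TPM ratio of replicate 2 over replicate 1 against the mean TPM (log axis) for the 15926 genes tested, with the 9 genes in green; dotted lines mark 1.5-fold, and genes at 0 in a library or beyond the axes are not drawn. The 9 genes lie between -0.09 and 0.32, inside the dotted lines.

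The annotation made little difference to the levels. With GENCODE M4 in place of M21, 0 of the 9 genes moved by over 1.5 times, where 6.11% of the 14763 genes with a mean of 1 TPM or more under both annotations did. The ratio of M21 to M4 was 0.947 for Hoxd13, Hoxd12, Hoxd11, Hoxd10, Hoxd8 and Evx2, and at most 0.968, for Mtx2, with a median of 0.949 over the genes compared.

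The known partners and regulators of HoxD proteins were measured in the same libraries. All 9 TALE cofactor genes, whose proteins of the PBX, MEIS and PKNOX families bind DNA together with HOX proteins, reached 1 TPM, from Meis3 at 6.725 ± 0.827 TPM to Pknox1 at 29.5 ± 1.77 TPM, with 0 called between the libraries. Of 11 genes that act on HoxD transcription 10 reached it, led by the Polycomb gene Ezh2 at 143 ± 1.73 TPM and the insulator gene Ctcf at 122 ± 8.17 TPM. Gli3, the repressor that limits HoxD genes to the posterior limb, stood at 41.0 ± 1.61 TPM, whereas Shh, its upstream signal, had 4 and 3.36 reads. Of 7 limb genes known to act downstream of these Hox genes, among them Hand2 and Shh again, 6 reached 1 TPM, from Runx2 at 7.94 ± 1.88 TPM to Aldh1a2 at 89.1 ± 9.60 TPM, with 0 called.

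Of the 14 paralogues of Hoxd8 to Hoxd13 and Evx2 in the other clusters, 11 reached 1 TPM. The level of Hoxa13 was 26.5 ± 0.990 TPM beside 67.05 ± 4.48 TPM for Hoxd13, that of Hoxa11 was 73.1 ± 5.88 TPM beside 46.3 ± 4.36 TPM for Hoxd11, and that of Hoxa10 was 223 ± 15.4 TPM beside 32.2 ± 1.85 TPM for Hoxd10. Hoxa9 at 60.1 ± 2.39 TPM stood beside Hoxd9 at 14.6 ± 0.608 TPM. In group 13 the HoxD gene was the higher of the HoxA and HoxD genes, and in groups 9, 10 and 11 the HoxA gene was, each past the spread. For group 11 this too depends on whether Gm28309 is counted as a Hoxd11 transcript. With its TPM added, Hoxd11 at 67.83 and 78.61 TPM and Hoxa11 at 68.92 and 77.23 TPM could not be ordered. Protein-coding transcripts only, and reads not divided by length, were not tried for any pair of HoxA and HoxD genes. Evx1, the paralogue of Evx2, stood at 3.965 ± 0.290 TPM, and the log2 ratio of Evx2 over Evx1, 0.50 and 0.67, was within the spread of 0.80. Between the libraries 1 of the 11 was called, Hoxc11, at 2.74 and 4.15 TPM, against 2.71% of all genes tested. With no fold minimum, where 19.2% of all genes passed, Hoxa10 and Hoxc13 passed too, both higher in replicate 2. Their adjusted p in the exact binomial test was 8.50e-06 and 0.0269. Hoxc8, at 3.09 TPM in both libraries, did not pass. Beyond the gene deserts, Atf2 and Atp5g3 on the side of Lnpk and Hnrnpa3 and Nfe2l2 on that of Mtx2 all reached 1 TPM, from 24.9 ± 0.0919 TPM for Nfe2l2 to 769 ± 18.1 TPM for Atp5g3, with 0 called.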

How the data were processed

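Poly(A) RNA from 2 pools of mouse limbs was sequenced. The authors deposited expected counts, TPM and FPKM per gene and transcript, with each transcript's percent of its gene, in the layout of RSEM output per the file headers, for GENCODE M21 and M4 on mm10 per the deposited file descriptions. Which aligner was run, and whether strand was used, is not given in the sources used here. M21 gene TPM was used for levels, deposited FPKM and M4 as alternatives. The members and lists were chosen with earlier results of these data known. The named genes were the 9 members, every gene with a read between Lnpk and Mtx2, the highest and lowest of each list, and any list gene that a sentence on a member needed. The paralogues of the HoxA cluster, Evx1, Hoxc11, Gli3, Ctcf, Shh, the other genes beyond the deserts and the somite, forelimb and hindlimb genes were named under that last clause, after their values were seen.

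From the deposited expected counts, rounded, library sizes were computed by TMM (edgeR 4.0.16) and an exact binomial test (scipy 1.17.1) was run on genes at a mean of 1 TPM, called at an adjusted p under 0.05 and 1.5-fold. DESeq2 1.42.0 size factors were an alternative. With 2 libraries of 1 group no residual degrees of freedom remain for edgeR's own test. Scripts were tested on simulated data. Pools are labelled biological replicates, and the binomial test covers counting error only. Exons, junctions and windows were read from GENCODE M21, promoters from the RefSeq table, which held all 9 genes. 1 homeobox sequence is not reported here.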

Additional observations from a re-analysis of the deposited data

How the results depend on the processing

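All 9 genes reached the minimum under each of the 7 alternatives tried for it, with 9 and 9 when either library was left out, and 33 to 35 of 36 pairs passed the spread under 6 of 8 alternatives, 32 with protein-coding transcripts only and 30 with Gm28309 added to Hoxd11. The genes that differed between the libraries, 432 of all tested, were 134 at a mean of 5 TPM, 170 with a 2-fold minimum and 3065 with no fold minimum, and the members among them were 0, but 5 with no fold minimum. The other settings of the library comparison, among them DESeq2 size factors (435) and no filter on low genes (630), called 0 members. Without either library, 3 members kept a second transcript of 10% and 0 differed between annotations. The levels that moved by over 1.5 times were those of Hoxd11 (28.35 TPM with protein-coding transcripts only) and Mtx2 (29.1 TPM) and, with Gm28309 added, Hoxd11 (73.2 TPM), alternatives chosen after seeing the data. No paired analysis was possible because the 2 libraries belong to 1 group. The low end is limited by reads: Hoxd8 rested on 283 and 299, and Shh on 4 and 3.36. With 2 libraries each SD is itself imprecise.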
